A study of Drosophila melanogaster with 20 samples.

Results

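The first introns of 10 kb or more were taken from the list of first introns deposited for the genes that the study called regulated in rasV12scrib1 against control mosaic eye/antennal discs (EAD) of Drosophila melanogaster. A row belonged to the set when its end minus its start was at least 10000 bp, and each distinct intron was counted once. The rule gave 365 of the 4749 distinct first introns (7.69%), which filled 571 of the 6232 rows. RNA had been sequenced from 20 samples of 6 genotypes, among them 4 rasV12scrib1 and 4 control samples, the groups compared for the list. How many of these samples entered the comparison is not stated in the sources used here. Both groups were EAD of third-instar larvae from crosses kept at 25°C, with GFP-marked MARCM clones induced by ey-FLP1, a flippase that acts in this disc, on chromosomes carrying FRT82B. The control clones carried FRT82B alone, whereas the tumor clones expressed the oncogenic form of Ras and were homozygous for scrib1, a mutation of the polarity gene scribble. The EAD were mosaic, so the RNA came from clones and from the unmarked cells around them. The deposited rows hold positions in the dm3 genome and carry no expression value, direction of change or gene name. A second deposited list gives, in 6947 rows and in the same order of transcripts, the 5 kb upstream of each start site. No value per sample was used, and none of the numbers below carries a replicate error. The study scanned these introns and upstream regions for motifs of AP-1, Ets21c and Ftz-F1, and the motif matches were not analysed here.

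A first intron separates the first exon, which carries the start site, from the rest of the transcript. Its donor is the splice site at the end of the first exon, and its acceptor is the splice site at the start of the second. In Drosophila most introns are short, and the long ones tend to belong to developmental regulators and neural genes, where they often hold enhancers and further promoters. A gene with several promoters often gives transcripts whose first introns differ in length but end at the same acceptor.

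The median length of the 365 introns was 15650 bp. Their lengths ran from 10010 to 106117 bp, and the quartiles were 12139 and 23403 bp. Those of 10 kb to under 20 kb numbered 243, those of 20 kb to under 30 kb 72, those of 30 kb to under 50 kb 35, and those of 50 kb or more 15. The shortest members measured 10010, 10015 and 10024 bp, and the nearest introns left out measured 9980, 9871 and 9863 bp, so the threshold divides introns of nearly equal length. The long introns held 57.4% of the summed length of the distinct first introns. Counting overlapping bases once, they covered 5.93 Mb of the 9.54 Mb that lay in any listed first intron, or 62.1%. Length chose these introns, and these values describe the choice.

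The deposited rows name no gene, and no annotation of dm3 was used here, so gene names were inferred from the lengths of exons and introns. An intron took the name of a gene when a single gene on the same arm and strand of the later BDGP6 annotation had a first intron of the same number of base pairs. For 222 introns the first exon had the same length too, and for a further 116 the intron length stood alone, a wider rule that was added after the data had been seen. Together 338 introns were named, for 255 genes, of which 161 had at least 1 intron matched on both lengths. When the intron lengths were shifted by up to 50 bp in either direction, a mean of 0.0548% of the introns matched on both lengths and 0.575% on intron length, arm and strand, against 61.1% and 93.4% unshifted. In each of the 48 sets of named introns on 1 strand of 1 locus, the introns pointed to a single gene. A further 3 introns fitted more than 1 gene and 24 fitted none, 6 of them outside the chromosome arms of dm3. A name in what follows rests on both lengths unless intron length alone is stated. The names were reached without comparing positions between builds and remain inferences from length. Positions are those of dm3, counted from 1.

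The 10 longest introns belonged to 6 named genes and to 1 locus without a name. The longest, of 106117 bp, lay in CG32373 on 3L from 7643966 to 7750082, and a second intron of 86247 bp left the same donor and ended at 7730212. The first intron of Snoo, a Ski family co-repressor of Smad signaling, spanned 78434 bp on 2L from 7896755 to 7975188. That of pum, which encodes the translational repressor Pumilio, spanned 76095 bp on 3R from 4906745 to 4982839. The fru gene, which encodes BTB zinc-finger factors of sex-specific neurons, contributed introns of 70703 and 68055 bp. The intron of Eip75B, a nuclear receptor induced by ecdysone, was 65240 bp long and lay on 3L from 17986097 to 18051336. The intron of bab1, a BTB factor that patterns the leg and antenna along their proximal-distal axis, measured 58746 bp on 3L from 1040355 to 1099100 and occurred in 4 rows. The unnamed introns, of 74943 and 74039 bp, lay on unplaced sequence (U) and shared their end at 1317212. The longest members thus included regulators of transcription and translation.

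**Figure D1:**
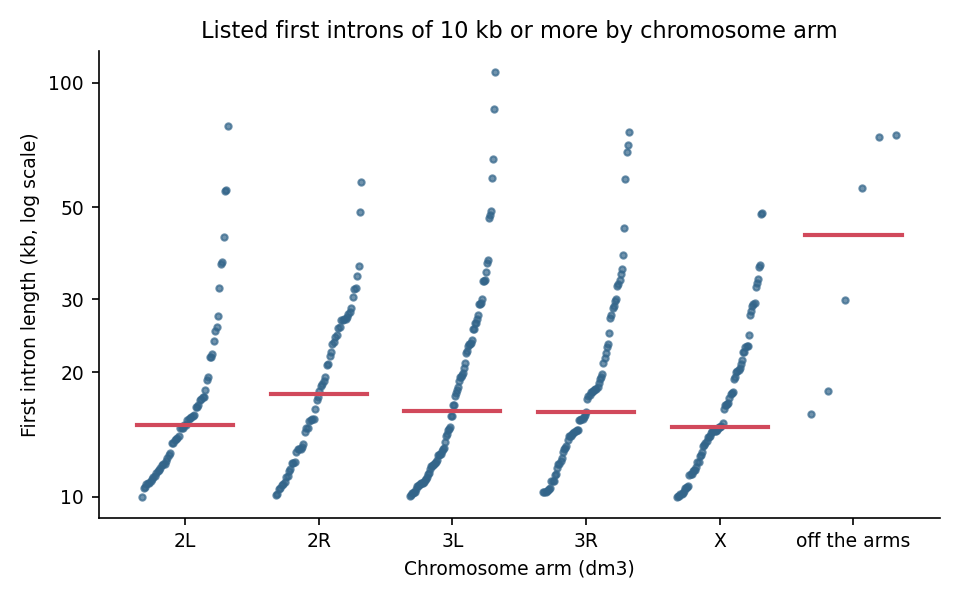
Length in kb (log scale) of each of the 365 distinct first introns of 10 kb or more, as 1 point per intron sorted within its chromosome arm of dm3, with the median of each arm as a red line. The medians of the arms lie between 14730 bp on X and 17706 bp on 2R, and the single longest intron, of 106117 bp, lies on 3L.

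The X chromosome held 76 of the long introns, which was 9.91% of its listed first introns, and arm 3L held 86, or 8.69%. The shares on the other arms were lower, at 6.81% on 3R (75 introns), 6.68% on 2L (62) and 6.63% on 2R (60). Chromosome 4 held 38 listed first introns and no long one. Of the 19 listed introns off the arms, 6 were long, with a median of 42771 bp. The arm medians of length were close to each other, from 14730 bp on X to 17706 bp on 2R. The derived strand was plus for 188 introns and minus for 177. No test was made over arms, since introns of 1 gene enter together and are not replicates.

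Long introns that shared at least 1 bp were joined into 285 loci. A single long intron made up 227 loci, while 45 loci held 2, 8 loci held 3 and 5 loci held 4 or more. Between neighboring loci on an arm the median gap was 258.0 kb, with quartiles of 90.6 and 557.0 kb. The 5 loci with the most long introns were those of br, apt, fru, Pdp1 and prage, and they differed in how the introns were nested.

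The br locus on X, from 1469755 to 1518170, held 7 long introns in 14 rows. The br gene encodes the Broad zinc-finger factors of the early ecdysone response. Its 6 introns here measured 48416, 29204, 14656, 13451, 11334 and 10192 bp. Of these, 5 ended at the same acceptor, and the intron of 11334 bp was the first intron in 7 rows from 2 start sites. The 29204 bp intron left the donor of the longest one and stopped at 1498958. The seventh intron of the locus, 13243 bp on the opposite strand, belonged to Mur2B, whose product is related to mucins. The start site of Mur2B lay within the longest br intron.

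The fru locus on 3R, from 14261513 to 14332215, showed the plainest fan of listed start sites. Introns of 70703, 68055, 14444 and 10910 bp left 4 donors and met at 1 acceptor. Their first exons were 69, 221, 20 and 629 bp long. Another fru intron of 29769 bp lay apart from these, from 14341066 to 14370834, and was the first intron of 8 rows. In prage on X, 4 introns of 19419, 17710, 16271 and 11632 bp likewise met at 1 acceptor, and the last of these was matched on intron length alone. Another intron of prage, of 14441 bp, lay in a locus of its own.

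Pdp1, which encodes a bZIP factor of the circadian clock, combined 2 donors with 2 acceptors. Its introns of 49017 and 47211 bp followed a first exon of 129 bp, and those of 34959 and 33153 bp followed a first exon of 2366 bp. The acceptors lay at 7811324 and 7813130 of 3L. In apt on 2R, which encodes the transcription factor Apontic, 3 introns of 31841, 18758 and 16264 bp left a single donor, and those of 28499 and 15423 bp joined the longest at its acceptor. The last 2 of these matched on both lengths, and the first 3 on intron length alone. The pum locus showed the reverse of fru: its introns of 76095, 58380 and 15786 bp left 1 donor, after a first exon of 833 bp, toward 3 acceptors.

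**Figure D2:**
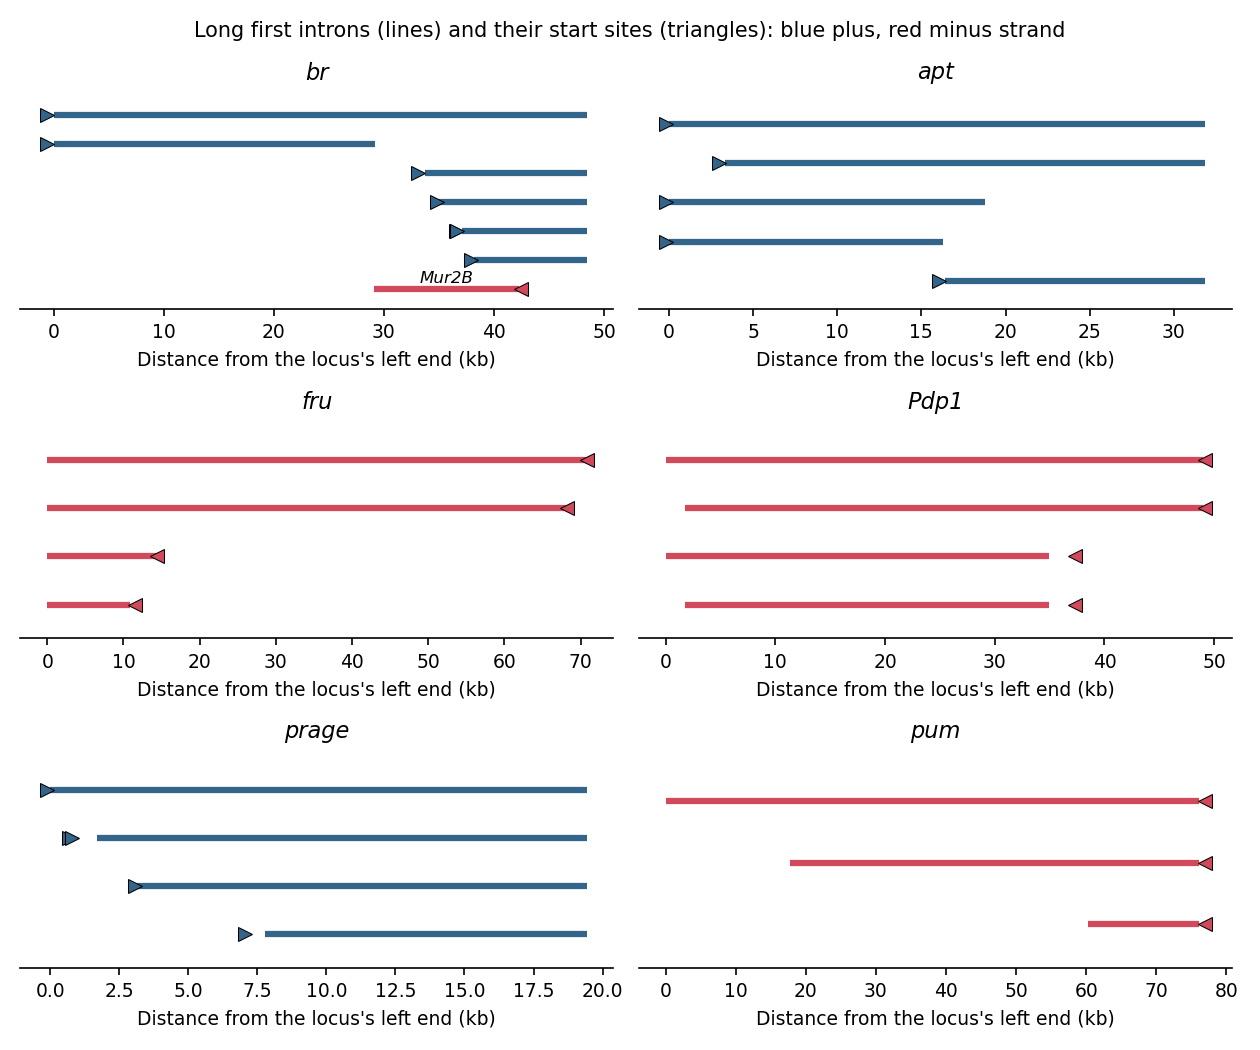
Long first introns (lines) and the start sites of their transcripts (triangles) in 6 loci, drawn by distance in kb from the left end of the locus, with plus-strand introns in blue and minus-strand introns in red. The 4 introns of fru and the 4 of prage end at 1 acceptor, the 3 of pum leave 1 donor, and Mur2B runs against br in the br locus.

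Some genes had long introns in more than 1 locus, so that these introns did not overlap. This was so for 15 of the 255 named genes. Antp, a homeotic gene of the Antennapedia complex with promoters known as P1 and P2, had an intron of 27535 bp from 2796393 to 2823927 of 3R in 5 rows and another of 21047 bp from 2736194 to 2757240 in 6 rows. The mub gene, which encodes an RNA-binding protein with KH domains, had introns of 30061 bp in 4 rows and 27404 bp in 6 rows. Con, which encodes the adhesion protein Connectin, had introns of 12627 and 12878 bp in 1 row each. CadN2, a neighbor and relative of N-cadherin, had 15650 and 10542 bp, again in 1 row each. Over all named genes, 197 had 1 long intron and 58 had several.

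Repeat rows show how many listed transcripts have the same first intron, and not how far it was used in the discs. Of the 365 long introns, 260 occurred in 1 row, 66 in 2, 30 in 3 to 5 and 9 in 6 or more. Thus 105 introns, or 28.8%, had repeat rows, against 25.3% of the 1412 introns of 1 kb to under 10 kb and 14.3% of the 2972 introns under 1 kb. The most repeated introns had 12 rows each. One was the 18391 bp intron of pip, a sulfotransferase needed for the dorsal-ventral axis of the embryo. The other was the 17170 bp intron of dpy, which encodes a giant protein of the apical extracellular matrix. The 12225 bp intron of CadN, which encodes N-cadherin, had 11 rows, that of Spn, the phosphatase scaffold Spinophilin, 12654 bp and 9 rows, and the 29769 bp intron of fru 8. Each of these 5 introns was reached from 1 start site, so its listed transcripts shared both the start site and the first intron. The same held for 95 of the 105 introns with repeat rows, while 10 introns were reached from several start sites.

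Splice sites were shared with another listed first intron by 201 of the 365 long introns (55.1%). The acceptor alone was shared by 123, the donor alone by 56 and both by 22, whereas 164 shared neither end. The share with a common acceptor was 39.7%, against 48.1% of the introns of 1 kb to under 10 kb and 19.3% of those under 1 kb. The share with a common donor was 21.4%, against 16.2% and 9.66%. Among the 145 long introns with a common acceptor, the shortest partner was under 1 kb for 36, between 1 kb and 10 kb for 62 and itself 10 kb or more for 47. Sharing varied within the long class. A common donor was found for 15.0% of the introns of 10 kb to under 15 kb and 14.5% of those of 15 kb to under 20 kb, but for 30.6% of those of 20 kb to under 30 kb and 40.0% of those of 30 kb or more. A common acceptor was found for 46.7%, 35.5%, 22.2% and 48.0% in the same order. The introns are not independent and no test was made of these shares.

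**Figure D3:**
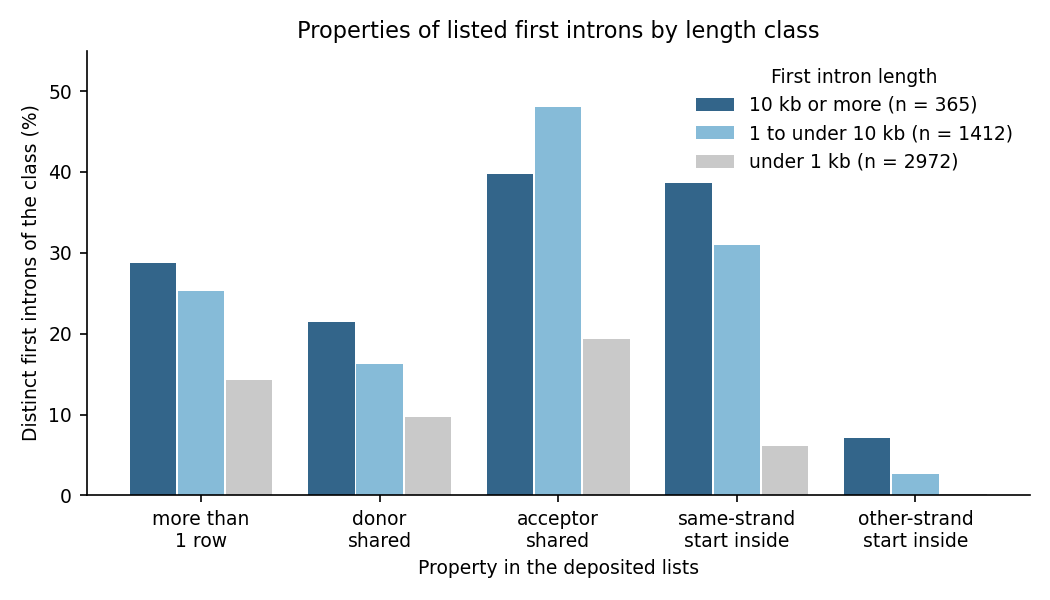
Share (%) of distinct listed first introns in 3 length classes that occur in more than 1 row, share a donor or an acceptor with another listed first intron, or hold a start site on the same or the other strand. Only start sites of transcripts with a listed first intron are counted. The class of 10 kb or more (dark blue, 365 introns) stands at 39.7% for a shared acceptor and at 7.12% for a start site of the other strand, where the class under 1 kb stands at 0.135%.

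Start sites of other transcripts with a listed first intron lay inside 151 of the long introns (41.4%). Upstream rows that were not paired with an intron gave no strand, and their start sites were not counted. A whole upstream region of this kind lay inside 19 of the long introns. Some of these, such as that of mwh with 2 such regions, held no counted start site, so the counts and rates here may be too low. For 141 of them a start site was on the same strand, for 26 on the other, and 16 had both. Of the 141, 121 also shared their acceptor with another listed intron, and 20 did not. The share with a same-strand start site was 38.6%, against 31.0% for introns of 1 kb to under 10 kb, but a longer intron offers more room. Per 100 kb of intron the long class held 3.7 same-strand start sites and the middle class 13.4. These rates sum over distinct introns, so start sites and bases inside several overlapping introns are counted once for each. On the other strand the values were 0.603 and 0.992 per 100 kb, and 7.12% of the long introns held such a site against 2.62% of the middle class. The most counted start sites lay in the 106117 bp intron of CG32373, with 2 on its strand and 6 on the other. The 48416 bp intron of br followed with 6 and 1. The 19419 bp intron of prage held 7 on its own strand. The 57449 bp intron of pk, which encodes the planar polarity protein Prickle and was matched on intron length alone, held 3 on each strand.

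Of the 26 long introns with a start site of the other strand inside, 6 lay in the br locus, where 5 introns of br held the start of Mur2B and that of Mur2B held 5 starts of br. Within the 106117 bp intron of CG32373 lay 5 first introns of the opposite strand, among them the 29393 bp intron of CG44195, named by intron length alone, from 7659083 to 7688475. The intron of Eip75B held 1 start site of the other strand, as did those of rols, an adaptor of myoblast fusion (26315 bp), and Syp, an RNA-binding protein of the hnRNP Q family (34495 and 15546 bp). Among introns named by length alone, CG5888 (42358 bp) held 4 and Cow (30041 bp) held 2.

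First exons that precede a long intron had a median length of 446 bp, and their quartiles were 239 and 676 bp. The median was 246.5 bp before introns of 1 kb to under 10 kb and 202 bp before introns under 1 kb. Within the long class it was 373 bp for the 167 introns of 10 kb to under 15 kb, 450.5 bp for the 76 of 15 kb to under 20 kb, 490.5 bp for the 72 of 20 kb to under 30 kb and 515 bp for the 50 of 30 kb or more. The longest first exon, of 3457 bp, preceded the 23921 bp intron of vn, which encodes the EGFR ligand Vein. The intron of jeb, the ligand of the receptor kinase Alk, followed first exons of 2255 and 2742 bp. At the other end, an intron without a name followed a first exon of 7 bp, the 27937 bp intron of sm, which encodes an RNA-binding protein, followed one of 19 bp, and a CadN2 intron (10542 bp) and the 14444 bp fru intron followed first exons of 20 bp. The rule did not use the first exon, but how the transcripts of each gene entered the lists is not stated, and its part in these medians was not tested.

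**Figure D4:**
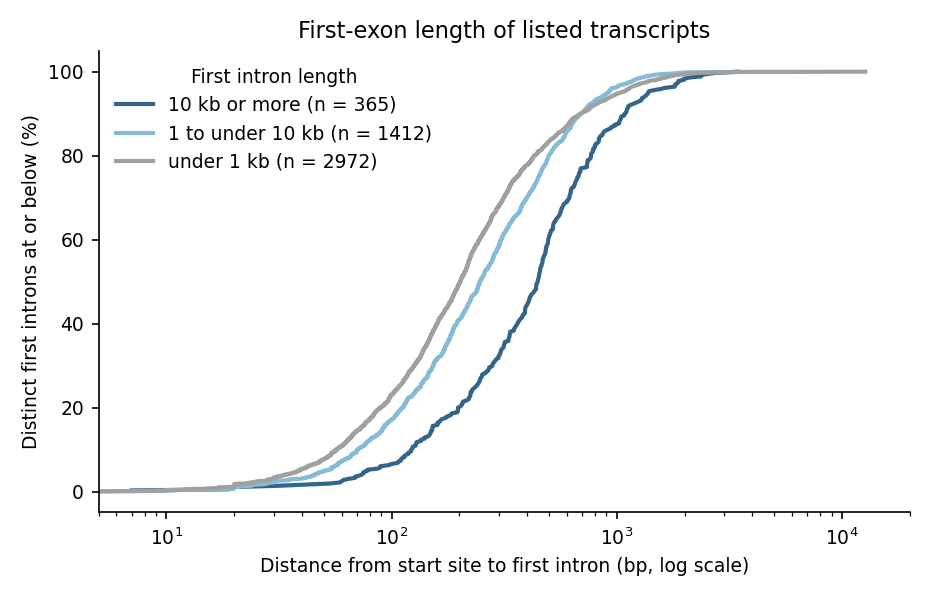
Cumulative share (%) of distinct first introns by the distance in bp (log scale) from the start site to the intron, for the 3 length classes. The curve of the 365 long introns lies to the right over most of the range, with medians of 446, 246.5 and 202 bp in order of falling intron length.

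The named genes were set against lists of genes that fit the tissue and the tumor. The later annotation holds 718 protein-coding genes with a first intron of 10 kb or more, of which 250 had a matched intron in the deposited list, which is a background of 34.8% (157 genes, or 21.9%, on both lengths). Over all lists, 37 of 87 such genes had a match (42.5%), 26 of them on both lengths. Single lists hold few such genes, and no difference from the background was tested. The study made the list from genes it called regulated, and the rows do not give the direction. A gene without a match may still be listed through a shorter first intron, or through a long one that the later annotation gives at another length.

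Among factors that pattern the eye and antennal disc, 10 of the 13 genes with a long annotated first intron had a match, 7 on both lengths. They included bab1, the homeodomain gene ct with 36241 bp in 2 rows, chinmo, a BTB factor of temporal identity, with 22135 bp, and klu, a zinc-finger factor, with 12072 bp in 3 rows. Matched on intron length alone were hth, whose product brings Extradenticle to the nucleus, with 24823 bp, ttk, a repressor of neuronal fate, with 12862 bp, and eya, the retinal determination co-activator, with 13496 bp. The list also took in Antp, lab and fru, which are best known outside the eye disc. The genes ey, Awh and Lim1 had no matched long intron. The 10 of 13 stands at 76.9%, beside the background of 34.8%, on few genes. That background takes in all annotated protein-coding genes of this kind, whether or not their RNA was detected in the discs. This list was chosen with earlier results of these data known, and a difference from the background was not tested.

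Of the nuclear receptors and ecdysone response genes, 5 of 11 had a match, all on both lengths. These were Eip75B (65240 bp), br (up to 48416 bp), the nuclear receptors Hr3 (26890 bp) and Eip78C (22192 bp), and Blimp-1, an ecdysone-induced zinc-finger factor (12605 bp). The Hr3 intron held 4 start sites of its own strand, and that of Blimp-1 held 3. EcR, Eip74EF, Hr4, Hr38, svp and ImpL2 had none. Among ETS and bZIP factors the count was 3 of 7 (42.9%). Pdp1 matched on both lengths, while Atf3, with introns of 22329 and 14417 bp from a common donor, and CrebA, a bZIP regulator of the secretory pathway, with 11420 bp, matched on intron length alone. The long first intron of kay, which encodes Fos, had no match, nor had those of aop and vri. The study reported no change of fos mRNA in rasV12scrib1 tumors.

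In the EGFR and Ras list, 5 of 9 genes had a match on both lengths. These were the ligand gene vn (23921 bp), the rhomboid protease gene ru (13569 bp), S, whose product carries the ligand Spitz through the cell, with introns of 15438 and 14621 bp that met at 1 acceptor, the inhibitor gene sty, or Sprouty (19503 and 11882 bp), and Pvf3, a ligand of the PDGF and VEGF family (36563, 25172 and 13800 bp). For sty the 19503 bp intron and for Pvf3 the 13800 bp intron matched on both lengths, and their other introns on intron length alone. Egfr, aos, ths and InR had no matched long intron. In the Notch list the count was 1 of 2, with neur, a ubiquitin ligase that acts on Notch ligands, at 15309 bp on intron length alone, and none for N.

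In the adhesion and axon guidance list 10 of 23 genes had a match, 6 on both lengths. Besides CadN, CadN2 and Con, these were side, which guides motor axons, with 3 introns of 17942, 17631 and 17209 bp that met at 1 acceptor, kirre, an immunoglobulin protein of myoblast fusion (28934 and 12849 bp), and Sema2b, a secreted semaphorin (12078 bp in 3 rows, and 20859 bp on intron length alone). On intron length alone stood the guidance receptor genes fra (26746 bp) and robo3 (16639 bp), Tl, which encodes the receptor Toll (27095 bp), and klg, an immunoglobulin protein (15340 bp). In the Wingless, Hedgehog and Dpp list 3 of 10 had a match: the inhibitor gene nkd (33245 bp, 3 rows), the receptor gene fz (29170 bp, 3 rows) and Wnt4 (18099 bp, intron length alone). The ligand gene dpp and its receptor gene tkv were among those without one.

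In the remaining lists no gene had a match. For the JNK pathway the count was 0 of 3 (kay, the metalloproteinase gene Mmp2 and the kinase gene Btk), and for JAK/STAT it was 0 of 2 (the transcription factor gene Stat92E and the phosphatase gene Ptp61F). For Hippo and the Fat cadherins it was 0 of 3 (sd, which encodes the partner of Yorkie, kibra and the apoptosis inhibitor gene Diap1). For epithelial polarity it was 0 of 6, with sdt and baz, which encode apical scaffolds, the junction genes cno and pyd, and Moe and kst, which link the membrane to the cytoskeleton. These lists hold few genes with a long annotated first intron, so their counts carry little weight.

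**Figure D5:**
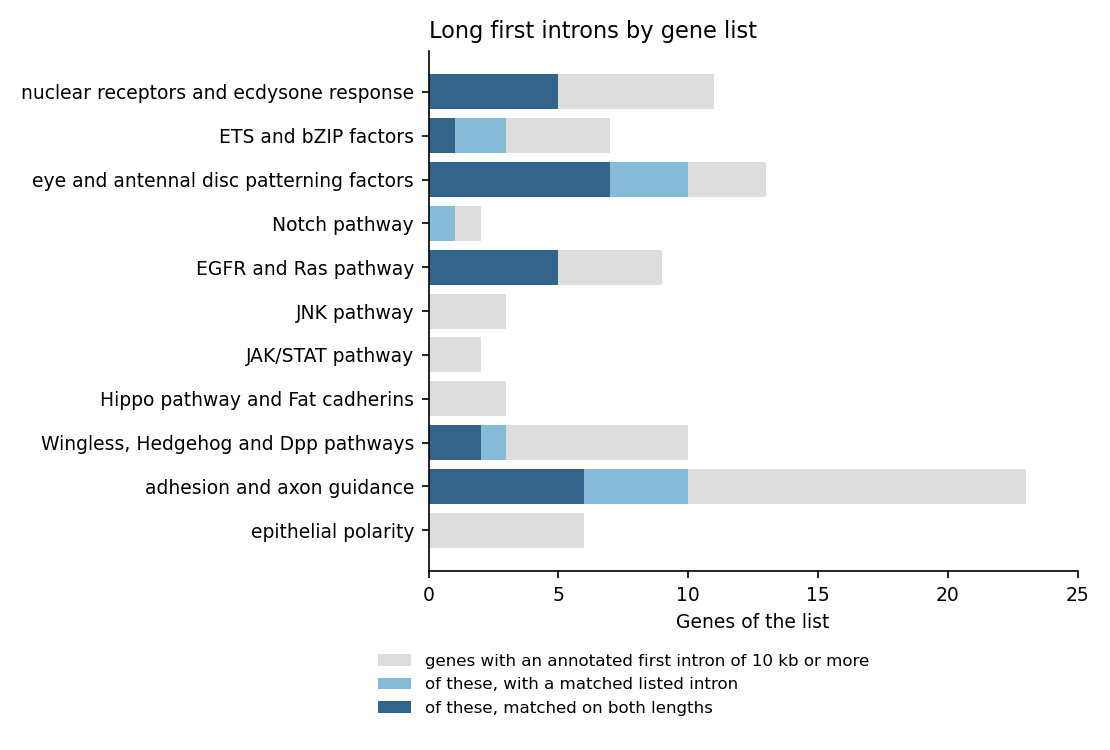
Number of genes in each list with an annotated first intron of 10 kb or more (grey), with a listed intron matched to them (light blue) and with a match on both lengths (dark blue). The bars for eye and antennal disc factors reach 10 of 13 and those for adhesion and axon guidance 10 of 23, while 4 lists have no match.

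Of the 250 matched protein-coding genes, 240 had their longest annotated first intron among the listed ones. A further 5 named genes were non-coding.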

How the data were processed

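Per the labels and the study's methods, the authors aligned reads against the dm3 assembly (BDGP R5) with TopHat2 2.0.10 and quantified genes with Cufflinks 2.1.1 and DESeq2 on an Ensembl annotation. The 2 deposited lists they made from the comparison of rasV12scrib1 with control hold chromosome, start and end, in base pairs of dm3. They hold no expression value, and depth per sample was not analysed here. The study ties the scanned regions to the genes that passed the fold and P cut-offs of its count of changed genes in rasV12scrib1, while its methods give stricter values for exported gene lists. The choice of transcripts for each gene is not given in the sources used here.

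Each intron row was paired, in order, with the next upstream row within 60 rows and 20 kb, which gave strand, start site and first exon. Plus-strand upstream regions were taken to hold the first transcribed base, because first exons then matched the annotation for 106 plus-strand introns, against 1 otherwise. This was seen in the data, as was the use of names that rest on intron length, arm and strand. Names come from the BDGP6 annotation of Ensembl release 115. Gene lists were matched by symbol, or by a single RefSeq synonym, for 303 genes from 308 symbols. Loci named one by one were the 10 longest introns, the 5 with the most rows, the 5 loci with the most introns and the 5 introns with the most start sites inside, together with matched genes of the lists. The members and lists were chosen with earlier results of these data known. The scripts ran on Python 3.11.15 with numpy 2.4.6, binomial intervals came from scipy 1.17.1, figures were drawn with matplotlib 3.10.9, and the functions were tested on simulated lists. No genome sequence of dm3 was used, so no sequence is printed.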

Additional observations from a re-analysis of the deposited data

How the results depend on the processing

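No paired analysis was possible because the lists hold no values per sample, and for the same reason no replicate could be left out. Of 23 alternative values, 15 stayed within the bounds set for them, which were 1.5 times for counts and the 95% binomial interval for shares and medians. That interval treats the introns as independent, which they are not, so it serves as a yardstick alone and measures no error. The number of long introns was 684 at a threshold of 5 kb and 122 at 20 kb, and 571 when rows were counted. The share with a common splice site fell from 55.1% to 35.1% with partners of 10 kb or more alone, and the share with a start site inside from 41.4% to 36.2% with sites at least 1000 bp from both ends. These changes follow from the stricter rules. Of the 365 introns, 222 matched a single gene on both lengths, 337 on intron length and arm and 338 on intron length, arm and strand, and 117 on both lengths if plus-strand regions ended before the first transcribed base. The last 2 were chosen after seeing the data. The medians of length and of first exons, the arm shares, the repeat rows and the number of loci stayed within bounds.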

Other observations

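Further groups among the named genes were picked after the names had been seen and are given as values. From the named genes, 8 receptors for peptides, amines and adenosine were picked, 5 of them matched on both lengths, with first introns of 10231 to 25414 bp. They were CCAP-R, Lkr, AstC-R1, Oct-TyrR and AdoR, and, on intron length alone, CCHa2-R, Dh31-R and SPR. Receptors without a match were not counted, so these genes give no share. The introns of Oct-TyrR, 25407 and 25414 bp, left 1 donor toward acceptors 7 bp apart. Of 10 planar polarity genes, 4 have a long annotated first intron and the same 4 had a match, namely fz (29170 bp), the cadherin gene stan (17395 bp, 4 rows), mwh (20429 bp) and pk (57449 and 36111 bp, intron length alone). Over all protein-coding genes with such an annotated intron the share with a match was 34.8% (250 of 718), and as the planar polarity genes were picked after a match had been seen, nothing is read from their count. The 5 non-coding genes had introns of 11968 to 48200 bp, among them the host transcript of the let-7 microRNA, lncRNA:let7C. Of these, 4 matched on both lengths, and lncRNA:CR43960 (21381 bp) on intron length alone.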
